A study of Mus musculus with 13 samples.

Results

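The genes of cholesterol and fatty acid synthesis were followed through 13 RNA-seq libraries of mouse islet cells. The 32 members were taken by gene name from the 55421 genes of the count table, and all 32 were found there and passed the filter on low counts. By role they were 4 regulators, 8 enzymes of the mevalonate and isoprenoid steps, 12 enzymes from squalene to cholesterol, 2 sterol transfer or partner proteins and 6 lipogenic enzymes. The groups were KO beta cells (n = 3), WT beta cells (n = 4), KO non-beta cells (n = 3) and WT non-beta cells (n = 3). KO mice were Txnrd1 fl/fl and WT mice were Txnrd1 +/+. Both carried Ins1 Cre/+ together with Rosa26 mTmG/mTmG. Cre and the membrane reporter were therefore present in every group, and Ins1-driven Cre acts in cells that express insulin. Mice were C57BL/6 and aged 10 to 20 weeks, and islets spent a night in medium with 5.5 mM glucose and 10% serum before sorting. Beta cells were sorted as GFP-positive and non-beta cells as Tomato-positive, so the non-beta fraction holds the other islet cells together. The labels do not say that libraries of a group came from separate animals, so p-values measure the spread between these libraries.

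Cells make cholesterol from acetyl-CoA through mevalonate, isoprenoid units and squalene, and they make fatty acids from the same acetyl-CoA. The SREBP transcription factors, encoded by Srebf1 and Srebf2, are membrane-bound precursors that the escort protein SCAP carries to the Golgi for cleavage when sterols are low, while INSIG1 holds the complex back when sterols are high. Txnrd1 encodes the cytosolic thioredoxin reductase, which passes electrons from NADPH, a reductant that cholesterol and fatty acid synthesis also consume.

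Library totals ran from 28687466 to 36775079 counts. Txnrd1 had 605, 599 and 540.1 CPM (library-size scaled counts) in KO beta cells, against 277, 273, 293 and 324 CPM in WT beta cells. The exons deleted are not given, so the whole-gene count does not check the genotype. The sort was seen in the hormones. Ins2, a defining beta-cell gene, took 13.6% to 21.2% of counts in KO beta cells and 20.2% to 22.6% in WT beta cells, with the lowest share in KO beta replicate 3. Gcg, the alpha-cell hormone, stood at 3573 CPM in that library, with 634 and 509.9 CPM in the other KO beta libraries, against 318 to 702 CPM in the WT beta libraries. KO non-beta replicate 3 held Ins2 at 13.1% of the beta-cell mean. In sorted bulk RNA, fewer cells of a type and less RNA per cell cannot be told apart.

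Promoters are shown for Pgrmc1, Srebf2 and Tm7sf2, which differed between KO and WT beta cells, and for Hmgcs1, which carried the sterol motif. RefSeq promoter windows of build GRCm38.p6, from 250 bases before to 50 bases after the start site, matched 26 of the 32 members with 32 windows. Capitals mark matches, on either strand, to the core of a sterol regulatory element (TCACNCCAC), the CCAAT box, the GC box (GGGCGG) and the core of an antioxidant response element (TGACNNNGC). None of the matches printed here overlap.
Pgrmc1 (chrX:36597943-36598242, + strand): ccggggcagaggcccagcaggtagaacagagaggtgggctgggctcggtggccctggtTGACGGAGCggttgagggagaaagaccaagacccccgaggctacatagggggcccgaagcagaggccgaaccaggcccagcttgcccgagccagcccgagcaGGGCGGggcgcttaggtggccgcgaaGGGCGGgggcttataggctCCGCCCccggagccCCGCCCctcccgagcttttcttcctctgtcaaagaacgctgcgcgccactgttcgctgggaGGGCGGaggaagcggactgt
Srebf2 (chr15:82147019-82147318, + strand): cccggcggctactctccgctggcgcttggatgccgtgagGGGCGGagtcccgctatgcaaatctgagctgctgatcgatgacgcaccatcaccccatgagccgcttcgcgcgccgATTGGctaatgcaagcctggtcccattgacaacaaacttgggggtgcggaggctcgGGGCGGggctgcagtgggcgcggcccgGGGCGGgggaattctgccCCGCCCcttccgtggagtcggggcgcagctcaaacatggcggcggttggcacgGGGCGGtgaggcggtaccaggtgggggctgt
Tm7sf2 (chr19:6067801-6068100, - strand): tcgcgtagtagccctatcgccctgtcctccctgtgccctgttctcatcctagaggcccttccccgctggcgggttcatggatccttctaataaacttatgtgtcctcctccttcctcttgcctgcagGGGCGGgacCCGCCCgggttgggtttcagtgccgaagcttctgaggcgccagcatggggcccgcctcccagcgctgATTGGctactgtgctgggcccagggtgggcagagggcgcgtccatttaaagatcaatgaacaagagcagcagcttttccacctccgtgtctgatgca
Hmgcs1 (chr13:119690101-119690400, + strand): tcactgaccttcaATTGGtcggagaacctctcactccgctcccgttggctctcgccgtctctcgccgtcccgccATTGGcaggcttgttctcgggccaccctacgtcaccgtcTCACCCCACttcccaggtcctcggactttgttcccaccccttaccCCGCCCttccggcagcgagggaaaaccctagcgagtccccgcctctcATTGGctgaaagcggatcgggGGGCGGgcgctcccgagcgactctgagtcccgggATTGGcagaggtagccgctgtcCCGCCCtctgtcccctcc

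In the search of both strands, TCACNCCAC was in 1 of the 32 member windows, that of Hmgcs1, and in 1.24% of all 32851 promoter windows. Only exact letters were counted, and members without a window were not searched. The count therefore does not show that other members lack a sterol regulatory element. CCAAT was in 22 of 32 member windows (68.8%) and in 37.4% of all windows, and 16 of the 17 matched enzyme genes of the mevalonate and sterol steps had it. GGGCGG was in 24 of 32 member windows (75.0%) and in 35.7% of all windows. TGACNNNGC was in 5 member windows, those of Dhcr7, Hsd17b7, Mvk, Pmvk and Pgrmc1, and in 12.4% of all windows. In the Pgrmc1 window that match starts 192 bases before the start site. A match is a description of letters and does not show binding.

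Levels per kilobase of exon ranked Acly first in every group. Acly, which makes cytosolic acetyl-CoA from citrate, averaged 874 CPM per kilobase in KO beta, 957 in WT beta, 317 in KO non-beta and 331 in WT non-beta cells. Pgrmc1, a haem-binding membrane protein of the endoplasmic reticulum known as a partner of CYP51, was next with 250.5, 112, 277 and 279 CPM per kilobase in the same groups. Fdps, farnesyl diphosphate synthase, followed in beta cells with 66.1 in KO and 64.2 in WT libraries. Sqle, squalene epoxidase, stood close to it with 64.0 in KO beta and 63.7 in WT beta cells. Scd1 and Acaca were the lowest members, under 1 CPM per kilobase in every group.

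**Figure D1:**
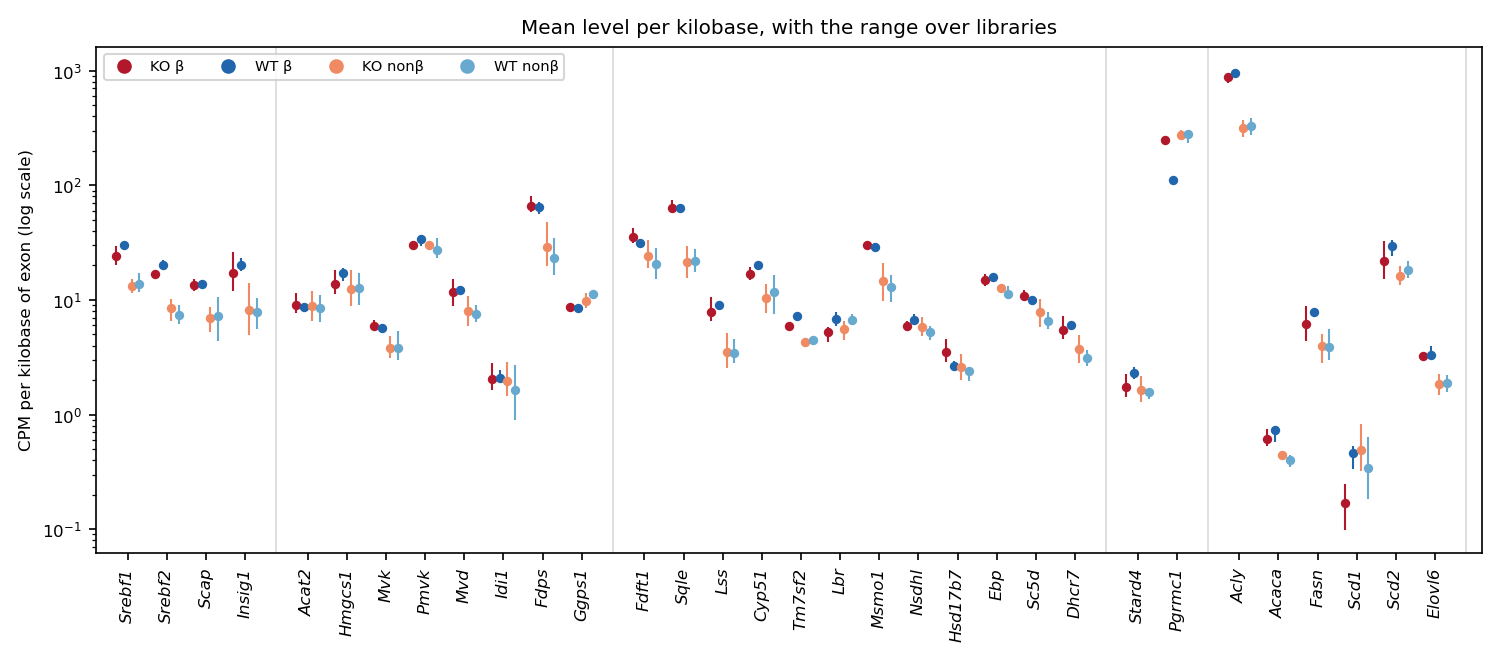
Mean level of the 32 members in CPM per kilobase of exon on a log scale, ordered by role, with the 4 groups in colour and bars for the range over libraries. Acly and Pgrmc1 stand above the other members, and Pgrmc1 in WT beta cells (112) lies apart from its other groups.

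The first comparison asks what differed between KO and WT beta cells. Pgrmc1 rose 2.25-fold in KO beta cells, and Srebf2, Tm7sf2 and Scd1 fell. In the main fit, without pairing, these 4 of 32 members (12.5%) were called at an edgeR adjusted p below 0.05. Of all 17525 genes tested, 20.1% were called (10.1% higher and 9.97% lower). The median log2 fold change of the members was −0.14, against 0.01 for all genes tested, with 10 members above 0 and 22 below. Every KO beta library stood above every WT beta library for 1 member, Pgrmc1 (14.5% of all genes), and below for 4, Lbr, Scd1, Srebf2 and Tm7sf2 (15.8% of all genes).

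Pgrmc1 is on chromosome X (36598206 to 36606079, + strand, GRCm38). It had 493, 446 and 457 CPM in KO beta cells, against 218, 204, 197 and 211 CPM in WT beta cells. The groups were far apart, with the lowest KO library more than 200 CPM above the highest WT library. In non-beta cells it had 515, 464 and 563 CPM in KO libraries, against 554, 565 and 436 CPM in WT libraries, which overlap. The log2 fold change between KO and WT beta cells was 1.17 (standard error 0.07, edgeR adjusted p = 4.52e-06). It kept its call under all 13 alternatives, with log2 fold changes of 1.12 to 1.20. The KO beta libraries lay within or near the range of the non-beta libraries.

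Among the regulators Srebf2, the SREBP that mainly drives sterol genes, was lower. It had 111, 122 and 128 CPM in KO beta cells, against 141, 143, 141 and 159 CPM in WT beta cells, without overlap. The log2 fold change was −0.27 (standard error 0.08, edgeR adjusted p = 0.0323). With same-numbered libraries paired, Srebf2 was no longer called, at −0.23 (edgeR adjusted p = 0.0615). It was also lost without KO replicates 1 or 2 or WT replicates 2, 3 or 4 (adjusted p 0.0588 to 0.112).

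Srebf1, the SREBP that mainly drives lipogenic genes, had 115, 129 and 166 CPM in KO beta cells, against 166, 166, 183 and 164 CPM in WT beta cells. Only KO replicate 3 reached the WT range. Srebf1 missed the threshold (log2 fold change −0.31, edgeR adjusted p = 0.0783) and passed it with paired libraries (−0.34, adjusted p = 0.0243). Scap had 88.4, 101 and 113 CPM in KO beta cells, against 97.5, 103, 101 and 108 CPM in WT beta cells, a log2 difference of −0.02 (edgeR adjusted p = 0.902). Insig1 had 36.9, 39.3 and 81.6 CPM in KO beta cells, against 55.0, 71.3, 63.3 and 58.6 CPM in WT beta cells. KO replicates 1 and 2 of Insig1 lay below all WT libraries and KO replicate 3 above all of them, with a log2 fold change of −0.23 (edgeR adjusted p = 0.525).

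**Figure D2:**
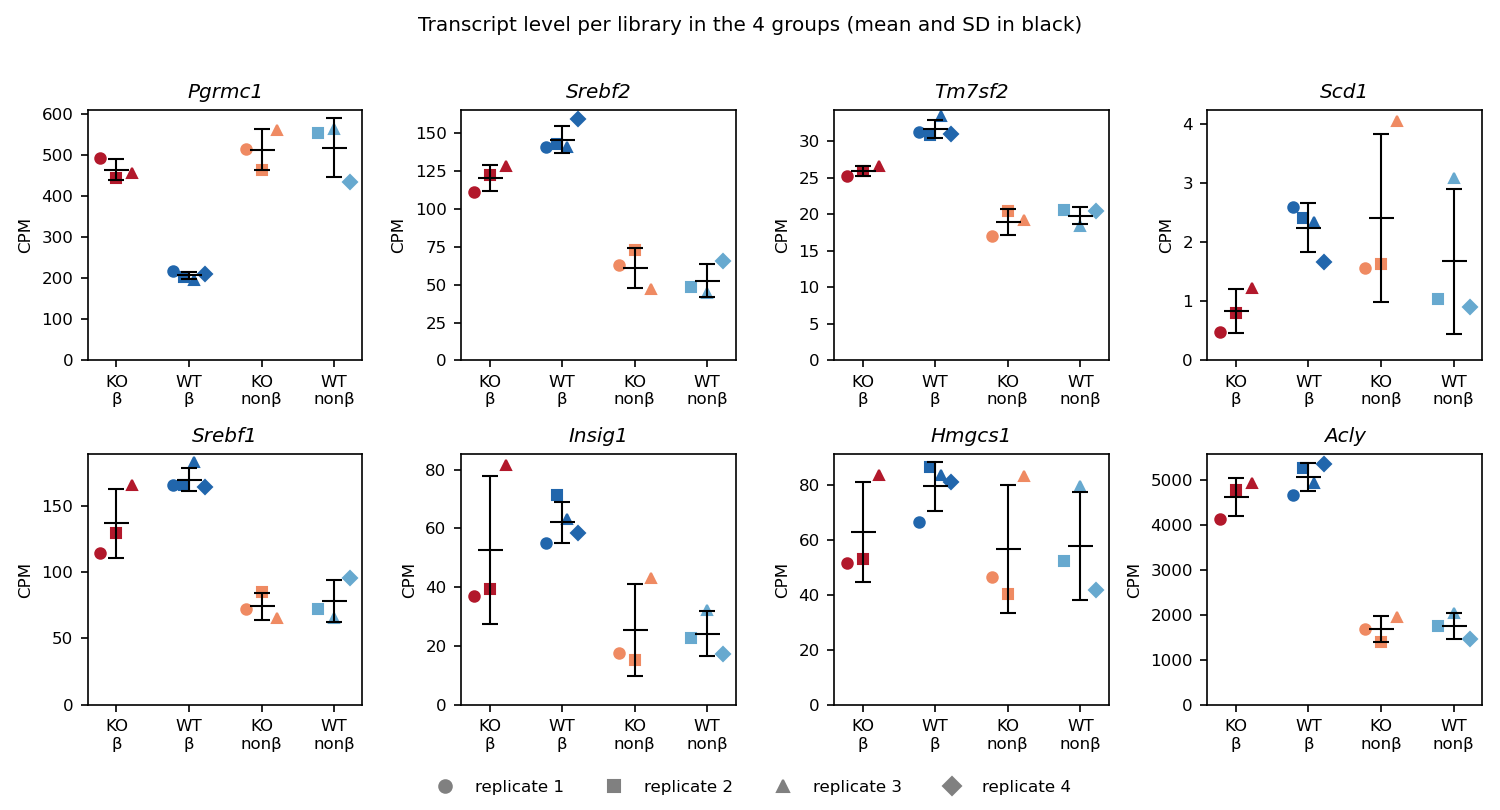
Level in CPM of 8 members in each library, by group (KO β, WT β, KO nonβ, WT nonβ), with the mean and SD in black and the replicate number as the marker shape. Pgrmc1 in KO β cells lies at 446 to 493 CPM, above all WT β libraries, and replicate 3 of Insig1 and Hmgcs1 lies above the other KO β libraries.

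Among the 20 mevalonate and sterol enzymes, 1 was called in KO against WT beta cells. Tm7sf2, a sterol reductase that acts on the product of CYP51, had 25.2, 25.9 and 26.6 CPM in KO beta cells, against 31.4, 30.9, 33.4 and 31.0 CPM in WT beta cells. The groups did not overlap, and the log2 fold change was −0.29 (standard error 0.07, edgeR adjusted p = 0.0206). Tm7sf2 shares 12.1% of its exon bases with Vps51, a gene on the same strand, so part of its count is uncertain. Its call was lost without KO replicates 1 or 2 or WT replicate 3 (adjusted p 0.0636 to 0.0663). Lbr, which carries a sterol reductase of the same step, had a log2 fold change of −0.38 (edgeR adjusted p = 0.0664). Hsd17b7, which acts in sterol demethylation, had 0.43 (edgeR adjusted p = 0.0616), and paired libraries called it higher (0.38, adjusted p = 0.0438).

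The remaining enzymes ran from −0.34 for Hmgcs1, HMG-CoA synthase, to 0.17 for Fdft1, squalene synthase, on the log2 scale, and none was called. Hmgcs1 had 51.5, 53.0 and 83.8 CPM in KO beta cells, against 66.6, 86.6, 83.8 and 81.2 CPM in WT beta cells. Replicate 3 again stood with the WT libraries. Exon sequence of Acat2, Fdps, Fdft1, Idi1 and Acaca is partly shared with other genes, and Scap, Hmgcs1 and Lbr overlap other genes over 13.2%, 12.1% and 10.7% of their exon bases, so their counts are uncertain.

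Of the 6 lipogenic enzymes, Scd1 was called lower and all 6 log2 fold changes were below 0, with a median of −0.30. Scd1, a stearoyl-CoA desaturase, was a low gene here. It had 14, 29 and 47 counts in KO beta cells, against 79, 74, 65 and 56 counts in WT beta cells, which is 0.48 to 1.22 CPM against 1.66 to 2.59 CPM. The groups did not overlap, and the log2 fold change was −1.40 (standard error 0.31, edgeR adjusted p = 0.00973). Its paralogue Scd2, which is the more abundant, had 82.4, 94.1 and 179 CPM in KO beta cells, against 133, 181, 169 and 161 CPM in WT beta cells, and missed the threshold (−0.44, edgeR adjusted p = 0.195). Fasn, fatty acid synthase, had 47.9, 59.1 and 96.2 CPM in KO beta cells, against 82.6, 80.9, 92.6 and 88.0 CPM in WT beta cells (−0.34, edgeR adjusted p = 0.228). Acly and Elovl6 had −0.13 and −0.04 on the same scale and were not called.

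With same-numbered libraries paired, 7 members were called: Hsd17b7 and Pgrmc1 higher, and Cyp51, Srebf1, Tm7sf2, Scd2 and Scd1 lower, against 20.2% of all genes. The paired fit leaves out WT beta replicate 4, and the labels do not state that same-numbered libraries belong together. With all 13 libraries in the fit, Pgrmc1 was the 1 member called, against 8.39% of all genes, and Scd1, Tm7sf2 and Srebf2 had edgeR adjusted p of 0.0925, 0.0656 and 0.283. The authors' deposited table listed 31 members for this comparison, with Hsd17b7 and Pgrmc1 higher and Lbr, Srebf1, Srebf2 and Tm7sf2 lower at a false discovery rate below 0.05, against 25.8% of all its genes. Scd1 was not among the genes of the authors' deposited table.

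**Figure D3:**
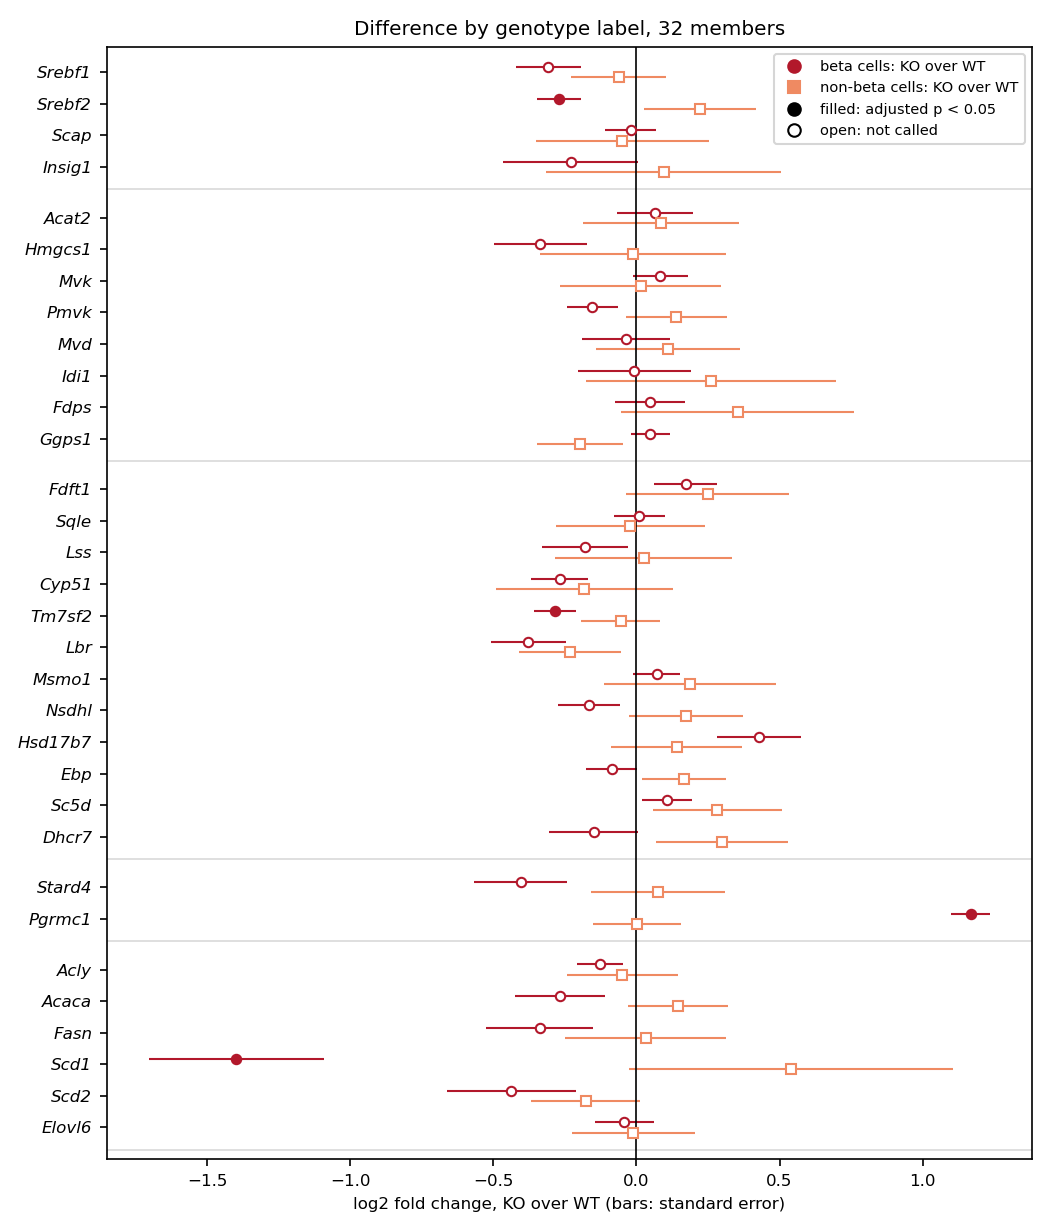
log2 fold change of KO over WT for the 32 members in beta cells (circles) and non-beta cells (squares), with standard errors; filled symbols passed an adjusted p of 0.05. Pgrmc1 stands at 1.17 and Scd1 at −1.40 in beta cells, and no non-beta symbol is filled.

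The count of called members changed most without KO beta replicate 3. That library had the highest level of its group for 17 of the 20 mevalonate and sterol enzymes, against 34.8% of all genes. The median log2 ratio of the 20 enzymes to the WT beta mean was −0.13, −0.14 and 0.22 in KO beta replicates 1, 2 and 3, and −0.09, 0.02, 0.08 and −0.02 in the WT beta libraries. For the 6 lipogenic enzymes the KO beta medians were −0.63, −0.51 and 0.01. KO beta replicates 1 and 2 were thus below the WT mean and replicate 3 above or at it.

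Without KO beta replicate 3, 15 members were called, 1 higher (Pgrmc1) and 14 lower, with a median of −0.27, against 23.1% of all genes called in that fit. The 14 were Srebf1, Srebf2, Insig1, Hmgcs1, Lss, Cyp51, Tm7sf2, Lbr, Dhcr7, Stard4, Acaca, Fasn, Scd1 and Scd2. Insig1 then had a log2 fold change of −0.72 (edgeR adjusted p = 0.00157) and Srebf1 −0.49 (edgeR adjusted p = 0.00266). This count rests on 2 KO libraries. Without KO beta replicate 2 there were 2 members called, against 13% of all genes, and without WT beta replicate 3 also 2, against 14.1% of all genes.

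For the 20 mevalonate and sterol enzymes, replicate 3 was also high in the non-beta fractions. KO non-beta replicate 3 had the highest level for 18 of the 20 enzymes (36.4% of all genes), and WT non-beta replicate 3 for 17 (34.9% of all genes). WT beta replicate 3 was highest for 10 (20.6% of all genes), and WT beta replicate 2 for 7 (23.1% of all genes). Insig1 had 43.3 CPM in KO non-beta replicate 3, against 17.5 and 15.3 CPM in the other KO non-beta libraries. The other regulators were lower in KO and WT non-beta replicate 3 than the mean of the other libraries of the group. The ratios were 0.83 and 0.78 for Srebf1, 0.69 and 0.78 for Srebf2, and 0.67 and 0.51 for Scap. Fasn was lower there too (0.64 and 0.69). The median log2 ratio of the 6 lipogenic enzymes to the WT non-beta mean was 0.14 and 0.23 in these libraries. Beside this, the summed level of the Y-linked genes Ddx3y, Eif2s3y, Kdm5d and Uty was highest in replicate 3 of all 4 groups, and Xist was lowest there in all 4. Every library had counts of both, and these genes were chosen after their values were seen. KO beta replicate 3 also carried more alpha-cell RNA, with alpha-cell markers summing to 3678 CPM, against 742 and 605 CPM in the other KO beta libraries. Ins2 was highest in replicate 3 of both non-beta groups. It stood at 13.1% of the beta-cell mean in KO, against 1.09% and 0.86% in the other libraries, and at 2.85% in WT, against 1.20% and 1.37%. The part of these differences in the enzyme levels was not tested.

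**Figure D4:**
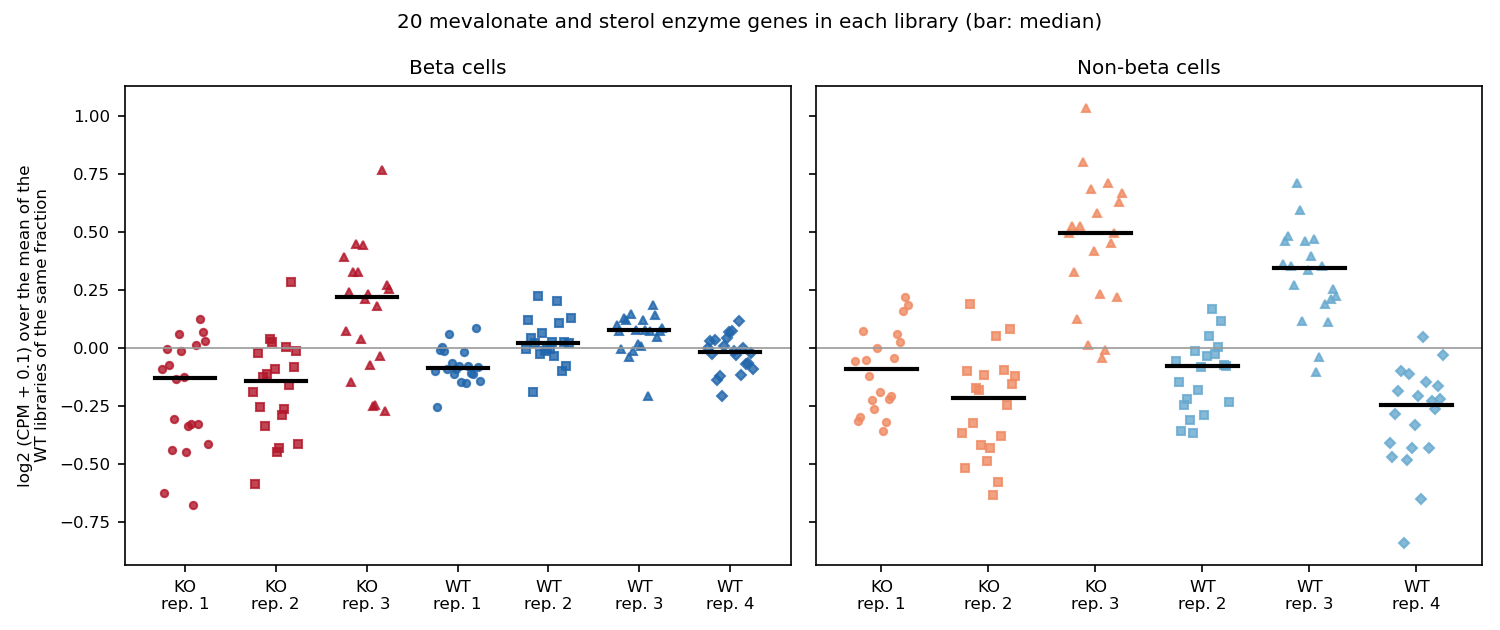
log2 ratio of 20 mevalonate and sterol enzymes in each library to the mean of the WT libraries of the same fraction, with the median as a bar. Replicate 3 has medians of 0.22 in KO beta, 0.50 in KO non-beta and 0.34 in WT non-beta cells.

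In non-beta cells no member was called between KO and WT libraries, and no gene of 18908 tested was (0.0%). By edgeR at an unadjusted p below 0.05 there were 0 members and 821 genes, and DESeq2 called 0 members and 29 genes. The median log2 fold change of the members was 0.08, with 21 above 0 and 11 below. The groups overlapped for all 32, whereas 4.01% of all genes had every KO library above and 5.71% every KO library below the WT libraries. The authors' deposited table also had no member called, against 0.0934% of all its genes. Pgrmc1 had an approximate 95% interval of −0.30 to 0.30 for its log2 fold change (edgeR adjusted p = 0.9995). Intervals in this report use the normal distribution and are too narrow for so few libraries.

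The difference between the fractions was tested directly. For Pgrmc1, the KO over WT log2 fold change in beta cells exceeded that in non-beta cells by 1.18 (edgeR adjusted p = 0.00472). The approximate 95% interval, again from the normal distribution, was 0.88 to 1.48. Pgrmc1 was the 1 member called, against 0.928% of 19942 genes tested (0.612% higher and 0.316% lower). Its range over 20 alternatives was 1.11 to 1.29, with adjusted p of at most 0.0185. Srebf2 had −0.49 (interval −0.91 to −0.06, edgeR adjusted p = 0.391), Tm7sf2 −0.22 (interval −0.48 to 0.04, adjusted p = 0.549) and Scd1 −1.93 (interval −3.28 to −0.59, adjusted p = 0.241), so a difference between fractions was not shown for them.

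WT beta cells had higher levels of most members than WT non-beta cells. Of 32 members, 23 were called higher and 2 lower, against 53.5% of all 19014 genes in either direction, and 24.8% higher. The median log2 fold change was 0.67, against −0.02 for all genes. The same numbers of members, 23 above and 2 below, did not overlap between the fractions, against 27.0% and 29.6% of all genes. All 4 regulators were higher, with Srebf2 at 1.46, Insig1 at 1.36, Srebf1 at 1.12 and Scap at 0.91 on the log2 scale. Acly and Sqle led the enzymes with 1.53 each, followed by Fdps with 1.47, Lss, lanosterol synthase, with 1.37 and Msmo1, a sterol demethylating oxidase, with 1.16. Fasn was 1.02 and Elovl6, a fatty acid elongase, 0.82 higher. Pgrmc1 (−1.33) and Ggps1, geranylgeranyl diphosphate synthase (−0.42), were lower.

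Acat2, Hmgcs1, Pmvk, Idi1, Lbr, Hsd17b7 and Scd1 were not called between the WT fractions. Of the members called higher, Nsdhl lost its call under 12 of 14 alternatives, Mvk under 7 and Fdft1 under 2. The authors' deposited table had 22 members higher and 2 lower, against 51.2% of all its genes.

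KO beta cells against KO non-beta cells gave 12 members higher and 1 lower, against 42.6% of all 18775 genes in either direction. The median was 0.46, against −0.02 for all genes. Every KO beta library lay above every KO non-beta library for 14 members and below for 1, against 27.9% and 27.6% of all genes. The authors' deposited table had 12 of its 31 listed members higher and none lower, against 41.0% of all its genes. Scd1 was not listed there, and the 12 included Insig1 but not Tm7sf2. Sqle (1.55), Acly (1.43), Lss (1.14), Fdps (1.14), Msmo1 (1.02) and Srebf2 (0.95) were among the higher members. The calls of Fdps, Lss and Msmo1 were lost in some fits with a library left out (edgeR adjusted p up to 0.0919, 0.0707 and 0.0572), and that of Fdps also by DESeq2 (adjusted p = 0.0529). Mvk and Cyp51 each lost their call under 6 of 13 alternatives, and Tm7sf2 under 4. Scd1 was lower (−1.54, edgeR adjusted p = 0.0359), but its call was lost without KO beta replicates 1 or 2 (adjusted p = 0.0977 and 0.0983). Without KO non-beta replicate 3 the Scd1 difference was −0.95 (edgeR adjusted p = 0.0872). Pgrmc1, called between the WT fractions, was −0.18 here (standard error 0.12, edgeR adjusted p = 0.263). Without KO beta replicate 3 alone 8 members were called, against 37.4% of all genes. Without KO non-beta replicate 1 there were 7, against 32.6% of all genes. Without replicate 3 in both KO fractions there were 19, against 46.4% of all genes.

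**Figure D5:**
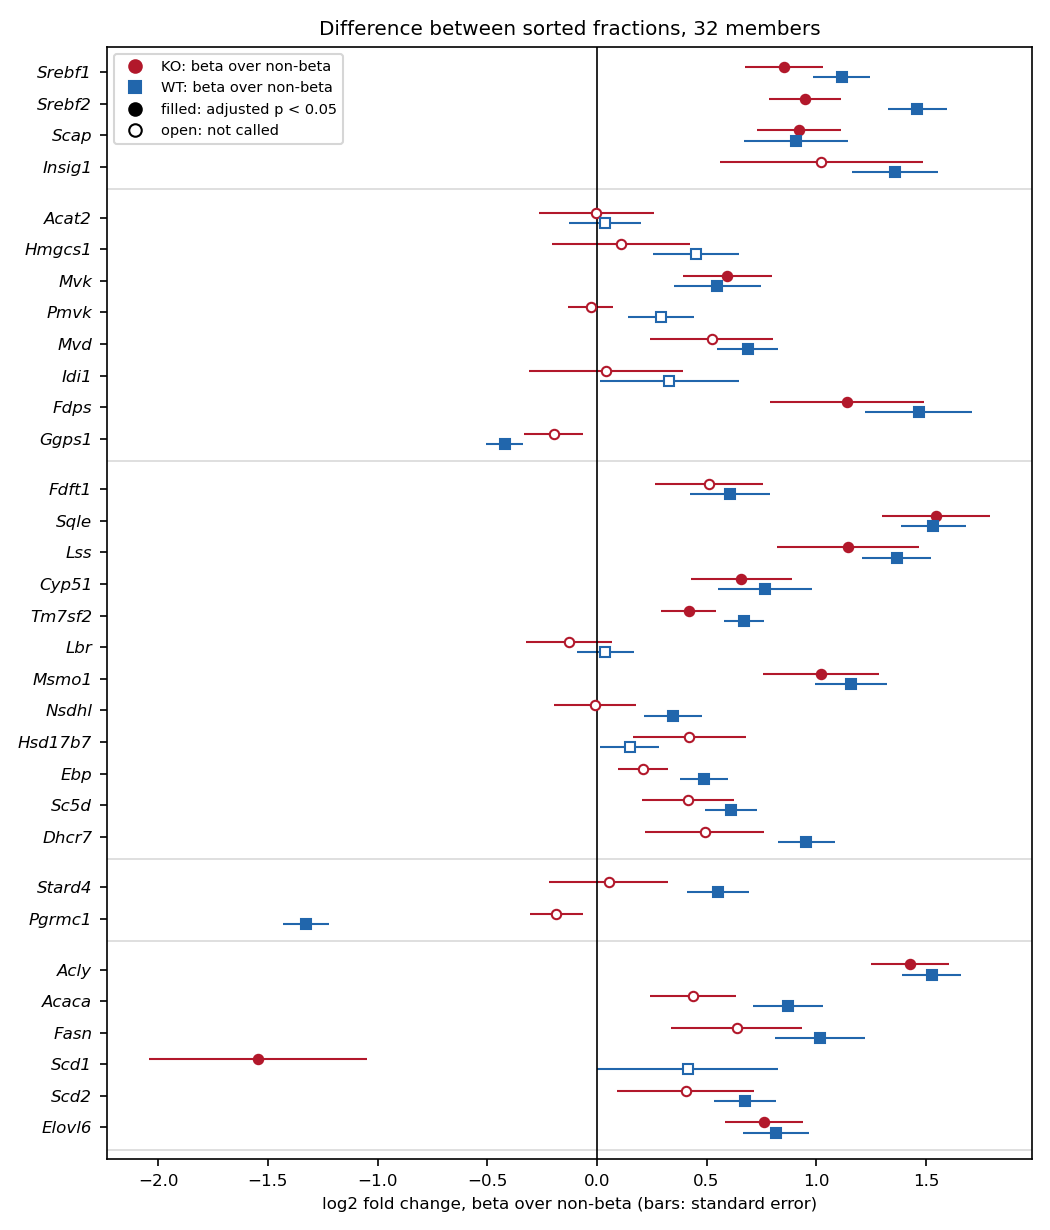
log2 fold change of beta over non-beta cells for the 32 members in KO (circles) and WT libraries (squares), with standard errors; filled symbols passed an adjusted p of 0.05. Most members lie right of 0, and Pgrmc1 stands at −0.18 in KO and −1.33 in WT cells.

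Marker levels moved between KO and WT beta cells beside these genes. Of 8 beta-cell markers 5 were called lower in KO beta cells (Ucn3, Slc2a2, Mafa, G6pc2 and Ins1), and their summed level was 157850 to 289680 CPM in KO and 260370 to 307470 CPM in WT libraries. Alpha-cell markers summed to 605 to 3678 CPM in KO and 449.9 to 820.4 CPM in WT beta cells, acinar markers to 5.69 to 28.6 and 3.80 to 8.47 CPM, and endothelial markers to 3.05 to 19.5 and 3.37 to 7.39 CPM. In KO beta cells, replicate 3 had the lowest beta-cell sum and the highest alpha-cell, acinar and endothelial sums. The delta- and PP-cell sum was 1103 CPM in that library, with 367 and 322 CPM in the other KO beta libraries. Ppy, the PP-cell hormone (log2 fold change 1.42, edgeR adjusted p = 0.0264), and Pecam1, an endothelial gene (2.25, edgeR adjusted p = 0.0436), were called higher in KO beta cells. Their part in the results was not tested.

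Genes beside the synthesis pathway were counted from 7 related lists in KO against WT beta cells, where 20.1% of all genes were called. Of 12 genes of SREBP processing and sterol sensing, 3 rose and 1 fell. Tmem97, a sterol-responsive membrane protein that binds NPC1, averaged 109 ± 11.3 CPM in KO and 55.0 ± 3.43 CPM in WT beta cells (SD, n = 3 and 4). Its log2 fold change was 0.99 (edgeR adjusted p = 3.50e-05). Erlin1, an endoplasmic reticulum membrane protein, rose by 0.62 and Paqr3 by 0.54, and Mbtps1, the site-1 protease that cleaves SREBPs, fell by 0.33 on the log2 scale. The Erlin1 difference was larger in beta than in non-beta cells by 0.90 (edgeR adjusted p = 0.0270).

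Of 14 tested genes of isoprenoid use and late sterol steps, none was called, and 2 had an unadjusted p below 0.05. Of 18 genes of sterol uptake, transport and esterification, 5 rose and 3 fell, with Stard5 at 0.65, Gramd1b at 0.59, Scarb1, the HDL receptor, at 0.45 and Vldlr at 0.34. Of 11 tested genes of LXR and sterol efflux, 2 fell, Nr1h3, which encodes LXR alpha (−0.51), and Abca7 (−0.54).

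Of 22 tested genes of fatty acid supply, desaturation and elongation, 3 rose and 3 fell. Me1, malic enzyme, a cytosolic source of NADPH, averaged 81.9 ± 2.36 CPM in KO and 46.5 ± 2.20 CPM in WT beta cells (SD, n = 3 and 4), a log2 fold change of 0.82 (edgeR adjusted p = 3.23e-05). The Me1 difference exceeded that in non-beta cells by 0.90 (edgeR adjusted p = 0.00382). Elovl7 rose by 0.90, and Elovl5 and Elovl2 fell by 0.53 and 0.49. Of 15 tested genes of glycerolipid synthesis and storage, 6 rose and none fell. Gpat3, which starts glycerolipid synthesis, rose by 1.68, Dgat2, which makes triglyceride, by 0.95, and the lipid droplet coats Plin3 and Plin2 by 0.65 and 0.63. Of 15 tested genes of fatty acid oxidation, 4 rose and 1 fell, with Acadl at 0.44, Acads at 0.30 and Acadvl at 0.27 among those that rose. Gpat3, Acadvl, Stard5 and Paqr3 overlap other genes over 37.4%, 42.9%, 23.9% and 15.7% of their exon bases, so their counts are uncertain.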

How the data were processed

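Raw counts per gene were deposited by the authors, and no normalisation was applied to them, per the file headers. The submitters' processing notes name FastQC, STAR and edgeR as tools and GRCm38.p6 as the build. The counter, strand setting, annotation and versions are not given in the sources used here. Libraries came from low-input RNA by SMART-Seq and Nextera chemistry, per the labels' protocols. The authors' deposited tables hold log2 fold changes and p-values with false discovery rates, per the file headers, and 13 per-sample columns of the count table were not used.

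The quasi-likelihood test of edgeR 4.0.16 was run in R 4.3.3 on the libraries of each comparison, with filterByExpr, TMM scaling and Benjamini-Hochberg adjustment over all genes tested. The interaction was fitted on all 13 libraries. Alternatives were RLE factors, DESeq2 1.42.0, no filter, a filter at 1 CPM, all libraries in the fit, a replicate block and leaving out libraries. The steps were tested on simulated data. The members, lists and named-gene rule were chosen with earlier results of these data known. Every member is accounted for, those called in beta cells or in the interaction and the 4 regulators are given per library, and up to 4 genes with the smallest adjusted p are named from a related list. A gene that this rule names is not reported here. The largest and smallest correlations of deviations between same-numbered KO and WT beta libraries were 0.208 and 0.122, above 0.1 in all 3 pairs. A fit paired by number is therefore given beside the main fit, in which libraries were not paired. KO beta replicate 2 correlated at 0.127 with WT beta replicate 1 and at 0.122 with its own number, so the correlations do not single out that pair. Total counts of 28687466 to 36775079 set the counting precision.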

Additional observations from a re-analysis of the deposited data

Results flagged for a closer look

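Pgrmc1 differed between fractions in its KO over WT change, with an interaction of 1.18 on the log2 scale (edgeR adjusted p = 0.00472).

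In the 4 WT beta libraries, 5 of the 32 members had a library far from the others. Chance gives such a gap in about 1 of 20 independent groups, but these members were measured in the same libraries. The other groups had too few libraries for this screen. The share of all genes with such a gap is not given here, so the count cannot be read as particular to the members. Srebf1 stood at 183 CPM in replicate 3, against 164 to 166 CPM in the others. Srebf2 stood at 159 CPM in replicate 4, against 141 to 143 CPM. Tm7sf2 stood at 33.4 CPM in replicate 3, against 30.9 to 31.4 CPM. Acaca stood at 9.88 CPM in replicate 4, against 13.3 to 13.7 CPM. Elovl6 stood at 25.3 CPM in replicate 1, against 19.6 to 20.3 CPM.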

How the results depend on the processing

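In KO against WT beta cells, 4 members were called, against 7 by DESeq2, 10 with no filter, 1 with all 13 libraries in the fit, and 2 to 15 with a library left out. The shares of all genes called by DESeq2 and with no filter are not given here, so those member counts cannot be read as a gain of the members. Of all genes, 3525 were called (20.1%), against 1673 (8.39%) with all 13 libraries in the fit and 1991 to 4117 with a library left out. With the replicate block, which pairs the libraries by number, 7 members were called, against 20.2% of all genes. Between the KO fractions the block gave 18 members, adding Insig1, Mvd, Fdft1, Sc5d and Dhcr7, and between the WT fractions it added Hmgcs1. The shares of all genes called in these block fits are not given here, so the added calls cannot be read as a gain of the members. The main fit between the KO fractions called 42.6% of all genes. The KO fractions share only a number under the labels, and same-numbered libraries correlated at 0.084 to 0.093, each best with its own number, as a hint from the data. In KO against WT non-beta cells no gene was called, against 29 by DESeq2, 1 with no filter, 12 with the replicate block and 3 with all 13 libraries. Between the KO fractions 13 members were called, 7 to 18 with a library left out, and 19 without both libraries of KO replicate 3. Of all genes, 7992 were called there, and 6277 to 8752 with a library left out. The share of all genes in the fit with 18 members is not given here, so that count cannot be read as a gain of the members. For the interaction 1 member was called, and 2 with a library left out (Scd1 added without WT non-beta replicate 3). Of all genes 185 were called for it, against 557 by DESeq2, 90 without both libraries of WT replicate 4, and 62 to 289 with a library left out. Of 2304 fold changes of single members under the alternatives, 2033 kept their direction and side of the threshold, 60 lost a call, 53 gained one, and 158 changed sign with no call under either setting. The causes were not tested. Scd1 rests on 14 to 79 counts per beta library.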
